A study of Mus musculus with 4 samples.

Results

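The Notch receptors Notch1 and Notch4, the ligands Jag1, Jag2 and Dll4 and the target genes Hey1, Heyl and Hes1 were examined in sorted cells of the mouse aorta. These 8 genes were chosen by symbol, and all 8 were among the 16408 genes that the unique molecular identifier (UMI) tables of 4 plates list outside the spike-in and mitochondrial rows. Each plate held single cells of 1 aorta, sorted as live endothelium (CD31+, CD45-, TO-PRO-3-) into 384 wells and sequenced by SORT-seq, a plate method that counts tags at the 3′ end of polyadenylated RNA. The 2 plates labelled Epas1 EC-KO (EC-KO 1 and EC-KO 2) came from Epas1fl/fl, Cdh5Cre/+ mice, and the 2 labelled Epas1 EC-WT (EC-WT 1 and EC-WT 2) from Epas1fl/fl, Cdh5+/+ mice, so that both groups carried the floxed Epas1 alleles and the second group lacked the Cre. The Cre is driven by Cdh5, which encodes the endothelial adhesion protein VE-cadherin, and is switched on by tamoxifen. The study's methods give tamoxifen to mice aged 6 weeks and use of the animals 2 weeks later. Epas1 encodes HIF2α, a transcription factor stabilised when oxygen is low, and the comparison asked how its loss from endothelium alters aortic endothelial cells.

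Notch receptors are membrane proteins that are cut when a ligand on a neighbouring cell pulls on them. The freed intracellular part enters the nucleus, joins RBPJ and switches on target genes, among them the HES and HEY repressors. In arteries, Notch1, Notch4 and Dll4 are known for arterial identity of the endothelium, and Jag1 on endothelial cells signals to smooth muscle, where Notch3 is the main receptor and Heyl one of the targets.

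A well was counted as a cell from 1000 UMIs upwards outside spike-in and mitochondrial rows, with no more than 25% of its non-spike-in UMIs on mitochondrial rows. These limits kept 441 wells, 157 and 98 of them from EC-KO 1 and 2 and 114 and 72 from EC-WT 1 and 2. The median kept well had between 3779 and 7419 UMIs by mouse, and the plates had between 10.5 and 22.1 reads per UMI. Of the kept wells, 15 formed a cluster with high smooth muscle genes, 8 and 4 of them from the EC-KO-labelled mice and 1 and 2 from the EC-WT-labelled ones. The other 426 wells, called the main wells below, were compared between the labelled genotypes. Pecam1, which encodes the sorting antigen CD31, had a UMI in 97.3% to 100% of these wells in each mouse, and Cdh5 in 79.9% to 91.4%. They include 89 wells led by the fibroblast gene Dcn, and values without those wells are given where they differ most. Ptprc, which encodes the excluded antigen CD45, had 1 UMI in all of them. In the same wells the summed level of 11 smooth muscle genes was 951 and 982 counts per 1000000 UMIs (CPM) in the EC-KO-labelled mice and 362 and 329 in the EC-WT-labelled ones, and that of 8 fibroblast genes was 2502 and 1401 against 884 and 1210. The part of these cell types in the differences below was not tested.

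The labels themselves have limits that touch every comparison of genotypes below. Epas1 had 3079 and 3342 CPM in the main wells of the EC-KO-labelled mice and 3332 and 2415 in the EC-WT-labelled ones. Its level was not lower in the first group, although 3′ tags need not fall when an internal exon is removed, so this gene checks neither label. The study's methods also name more analysed cells for Epas1 EC-WT than for Epas1 EC-KO, the reverse of the labelled plates. The study checked the Epas1 deletion in such mice by PCR of endothelial RNA and by staining, in samples not used here. In the plates, the clusters described further below also took unlike shares of the kept wells. The kept wells numbered 157, 98, 114 and 72 in the mouse order used below. Of these, the Vmn2r55-led cluster held 44, 21, 49 and 20, and the Meg3-led cluster 37, 45, 22 and 15. Taken per group, the Vmn2r55-led share was larger under the EC-WT label and the Meg3-led share under the EC-KO label. By mouse, the first rested on EC-WT 1, with EC-KO 1 and EC-WT 2 alike, and the second mainly on EC-KO 2. The study describes a cluster enriched in Epas1 EC-WT cells and others enriched in Epas1 EC-KO cells. These were not matched to the clusters here. The mice were used as labelled, and an exchange of both groups, which was not tested, would turn the sign of every difference given here. One flow cell name is shared by the files of EC-KO 2 and EC-WT 1, and EC-KO 1 and EC-WT 2 have a flow cell of their own each. Where 4 values follow each other below, they are those of EC-KO 1, EC-KO 2, EC-WT 1 and EC-WT 2 in that order.

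In the GENCODE annotation of GRCm38, the submitters' build, Notch1 lies on chromosome 2 from 26457903 to 26516663 on the minus strand, and Dll4 and Jag1 share that chromosome, from 119325784 to 119335962 on the plus strand and from 137081456 to 137116644 on the minus strand. Notch4 lies on chromosome 17 from 34564268 to 34588503 (plus), Jag2 on chromosome 12 from 112907819 to 112929776 (minus) and Hes1 on chromosome 16 from 30064384 to 30067796 (plus). Hey1 lies on chromosome 3 from 8663359 to 8667256 (minus) and Heyl on chromosome 4 from 123233556 to 123249875 (plus).

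Because the deleted gene encodes a HIF factor, the bases just upstream of Jag1 and Dll4 are shown. Jag1 is the member with the lowest unadjusted p between the labelled genotypes, and Dll4 is a ligand that endothelium is known for. Capitals mark the letters GCGTG or, for the other strand, CACGC, one of the forms of the core that HIF factors bind. Both come from RefSeq promoter windows on GRCm38.p6, stop before the first annotated transcript base of either annotation and read 5′ to 3′ along the gene's strand. The Jag1 bases are chr2:137116645-137116770 (minus) and the Dll4 bases chr2:119325534-119325783 (plus).
Jag1: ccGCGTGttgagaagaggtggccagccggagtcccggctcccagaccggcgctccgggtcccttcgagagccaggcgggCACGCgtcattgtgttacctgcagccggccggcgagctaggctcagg
Dll4: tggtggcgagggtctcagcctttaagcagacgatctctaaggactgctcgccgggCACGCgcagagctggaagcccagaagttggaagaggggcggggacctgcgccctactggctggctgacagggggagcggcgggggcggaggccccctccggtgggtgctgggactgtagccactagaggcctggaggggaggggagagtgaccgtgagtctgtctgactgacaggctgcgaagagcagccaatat

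The letters occurred 2 times upstream of Jag1 and 1 time upstream of Dll4. On either strand, 28.2% of the 32851 RefSeq promoter windows held them in the 250 bases before the start. Of the 5 members in that table, Jag1, Jag2, Dll4 and Notch4 held GCGTG in those bases and Notch1 did not. None of the 5 held the other core form ACGTG, which 16.6% of windows held, or TGGGAA, the core that RBPJ binds, which 21.6% held. A match is a description of the letters and says nothing of binding.

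Levels are given as UMIs summed over the main wells of a mouse and divided by that mouse's summed UMIs in the same wells, in CPM. The sums held 1023791, 756392, 645799 and 549570 UMIs, so that 3 UMIs, taken as the floor, correspond to 2.93, 3.97, 4.65 and 5.46 CPM. Tags are counted once per transcript at the 3′ end and were not divided by length, so levels of different genes are given side by side with no order drawn between them.

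Both receptors were detected in the main wells of every mouse. Notch1 had 289, 228, 160 and 142 UMIs, which is 282, 301, 248 and 258 CPM. The EC-KO-labelled mice were the higher ones, at 292 ± 13.5 CPM against 253 ± 7.52 (SD, n = 2 each), and the groups did not overlap. Notch4, the receptor largely restricted to endothelium, had 124, 104, 117 and 63 UMIs, or 121, 137, 181 and 115 CPM. EC-WT 1 was the highest and EC-WT 2 the lowest, so that the labelled groups overlapped, at 129 ± 11.6 and 148 ± 47.0 CPM (SD, n = 2 each).

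All 3 ligands were found, Jag2 at or near the floor. Jag1, which encodes a ligand that endothelium presents to smooth muscle, had 169, 123, 160 and 131 UMIs, or 165, 163, 248 and 238 CPM. Both EC-KO-labelled mice were lower than both EC-WT-labelled ones, at 164 ± 1.74 against 243 ± 6.64 CPM (SD, n = 2 each). Dll4, which encodes the ligand of arterial endothelium and of sprouting tip cells, had 20, 19, 15 and 22 UMIs, or 19.5, 25.1, 23.2 and 40.0 CPM. EC-WT 2 stood above the other 3 mice, and 9 of its 22 UMIs came from 1 well. Jag2, which encodes the second Jagged ligand, had 6, 2, 5 and 1 UMIs, with EC-KO 2 and EC-WT 2 under the floor of 3 UMIs.

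Of the targets, Hes1 had at least 32 UMIs in each mouse, whereas Hey1 and Heyl had at most 10 UMIs in the main wells of any mouse. Hes1, which encodes a repressor that many signals besides Notch induce, had 115, 101, 95 and 32 UMIs, or 112, 134, 147 and 58.2 CPM. EC-WT 2 was the lowest and EC-WT 1 the highest, so the labelled groups overlapped, at 123 ± 15 and 103 ± 62.8 CPM (SD, n = 2 each). Hey1, which encodes a HEY repressor known from arterial endothelium, had 9, 4, 6 and 8 UMIs, or 8.79, 5.29, 9.29 and 14.6 CPM. Both EC-KO-labelled mice were lower for Hey1 in CPM, though not in UMIs. Without the Dcn-led wells its groups overlapped, at 9.84, 4.93, 12.2 and 6.32 CPM. Heyl had 10, 8, 2 and 3 UMIs, or 9.77, 10.6, 3.10 and 5.46 CPM. Both EC-KO-labelled mice were higher for Heyl in UMIs and CPM, though not in reads, and without the Dcn-led wells it had 4, 3, 2 and 2 UMIs, or 5.63, 4.93, 4.05 and 6.32 CPM, where the groups overlapped in CPM. With those wells counted, the floor of 3 UMIs was not passed in either EC-WT-labelled mouse.

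**Figure D1:**
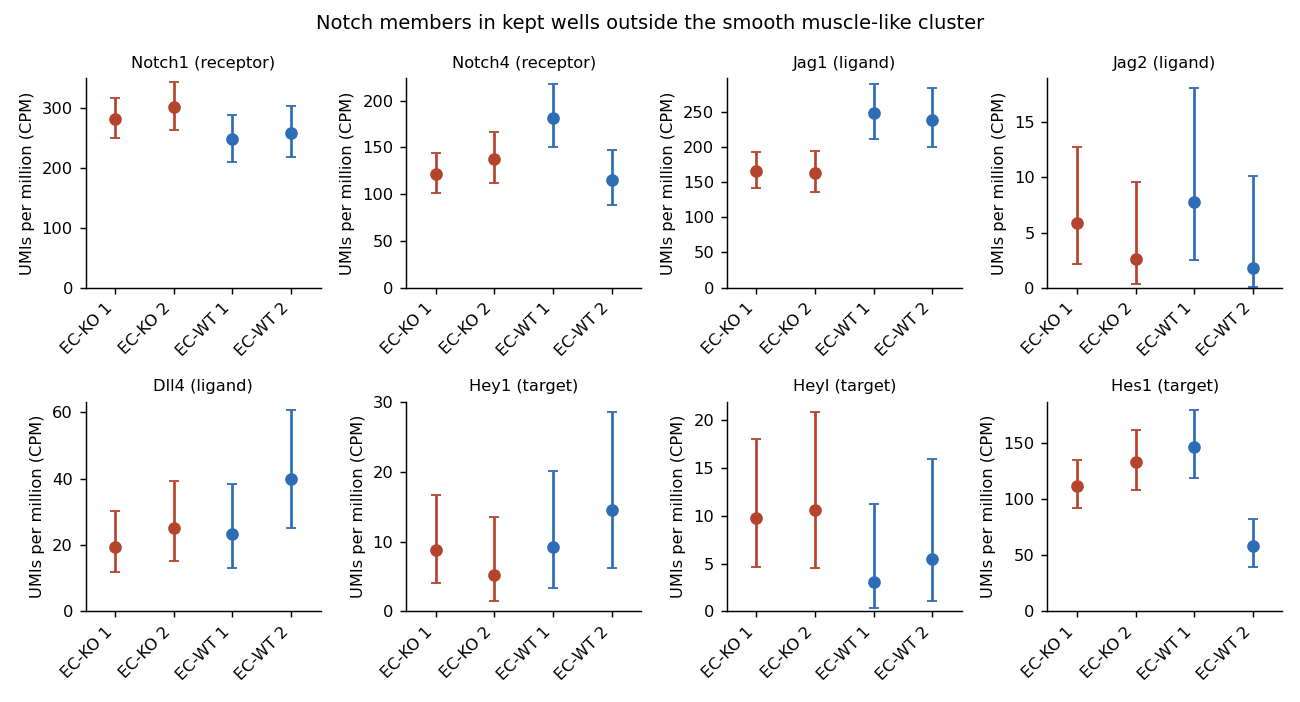
Level of each Notch member in CPM in the main wells of each mouse (red, labelled Epas1 EC-KO; blue, labelled Epas1 EC-WT). Points are 1 mouse each and bars are exact 95% Poisson intervals, which cover counting error only; the Jag1 points of the labelled groups stand apart, at 163 and 165 against 238 and 248.

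Detection in single wells followed depth. Notch1 had a UMI in 21.2% of main wells with 1000 to 2000 UMIs and in 91.4% of those with at least 8000, and the shares at the same depths were 19.7% and 76.3% for Jag1 and 13.6% and 48.9% for Hes1. As sequenced, the share of wells with a Notch1 UMI was 73.2%, 69.1%, 54.0% and 64.3%, with exact 95% binomial intervals from 65.3% to 80.1% in EC-KO 1 and from 44.4% to 63.4% in EC-WT 1. Both EC-KO-labelled mice were higher, by 12.0 percentage points on average, or 6.87 without EC-WT 1 and 7.49 in wells with at least 2000 UMIs. With each well thinned to 1000 UMIs, which makes the UMIs per well the same but not the reads per UMI, the shares were 21.5%, 22.3%, 23.9% and 18.6%, the groups overlapped, and the difference was 0.676 points. Thinning was a random draw that was not repeated, and it left 36, 24, 28 and 14 Notch1 UMIs. All thinned values here thus carry the scatter of that draw. Hes1 kept its order of shares: 34.9%, 40.4%, 31.0% and 20% as sequenced and 10.1%, 13.8%, 9.73% and 7.14% when thinned. In wells with at least 2000 UMIs its labelled groups overlapped. Neither Hes1 difference can pass a test in this design, since the smallest two-sided p that an exact permutation of 2 mice against 2 can give is 0.333.

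For Jag1, the shares ran the other way, at 47.7%, 53.2%, 58.4% and 57.1% of wells as sequenced and 14.1%, 16%, 19.5% and 17.1% when thinned. The EC-KO-labelled mice were lower on both scales, by 7.35 and 3.28 points (exact permutation p = 0.333 for each). The first difference, EC-KO minus EC-WT, was -4.58 points without EC-KO 1, -3.21 with wells from 500 UMIs and -12.7 with wells from 2000 UMIs, and -4.34 without the Dcn-led wells, where the groups overlapped. Notch4 had a UMI in 40.3%, 46.8%, 46.0% and 38.6% of wells, and its groups overlapped. Dll4 differed by under 1 percentage point among the mice, at 10.7%, 10.6%, 11.5% and 11.4% of wells, whereas without the Dcn-led wells the difference, EC-KO minus EC-WT, was 4.61 points. Jag2 had a UMI in 4, 2, 3 and 1 wells, Hey1 in 5, 3, 3 and 3 and Heyl in 5, 7, 1 and 3. Without the Dcn-led wells the difference in share, EC-KO minus EC-WT, went from 1.24 to 5.51 points for Notch4, from 0.36 to 1.10 for Jag2, whose groups then no longer overlapped, from -0.20 to 0.52 for Hey1 and from 2.82 to 0.27 for Heyl (exact permutation p between 0.333 and 1.0 for each). With all main wells, the Heyl difference in share was 0.77 points without EC-KO 2 and 1.12 without EC-WT 1. It was 4.52 without EC-WT 2 and 4.86 without EC-KO 1. No well was thinned away, because every kept well held at least 1000 UMIs.

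**Figure D2:**
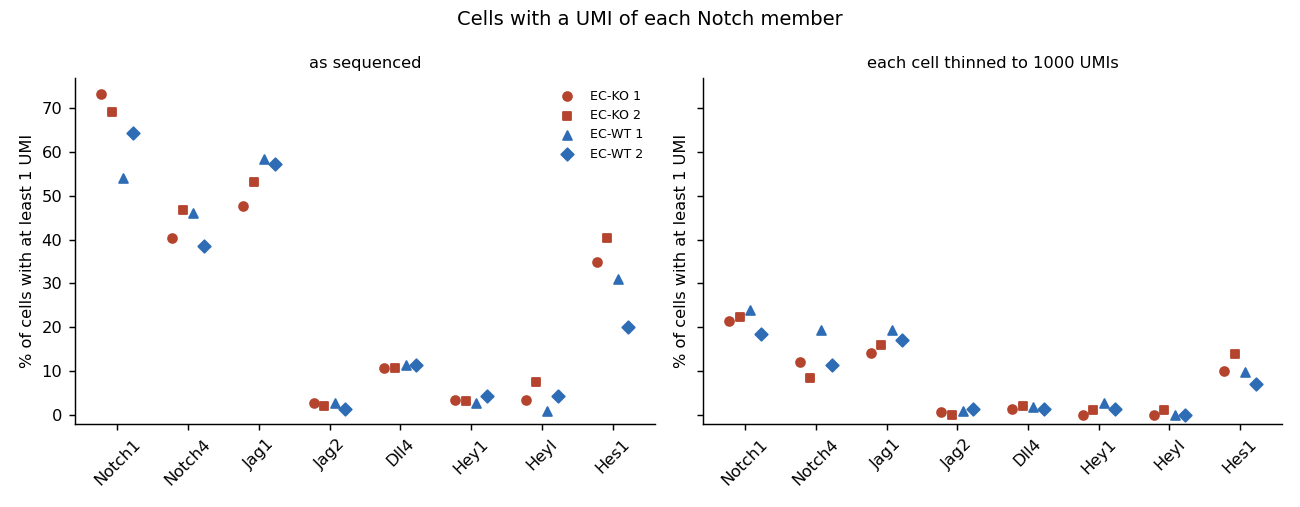
Share of main wells with at least 1 UMI of each member, as sequenced (left) and with each well thinned to 1000 UMIs (right), 1 point per mouse. The Notch1 gap between the labelled groups seen on the left, 73.2% and 69.1% against 54.0% and 64.3%, is not seen on the right, where the values are 21.5%, 22.3%, 23.9% and 18.6%. The values on the right come from a random draw that was not repeated.

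How often receptors, ligands and targets were read in the same well followed depth. Of the 426 main wells, 329 had a UMI of Notch1 or Notch4, 241 a UMI of Jag1, Jag2 or Dll4 and 157 a UMI of Hey1, Heyl or Hes1. A receptor and a ligand were found together in 207 wells, or 48.6%, and by mouse in 46.3%, 52.1%, 47.8% and 50%. All 3 roles were found in 100 wells and no member in 45. With wells thinned to 1000 UMIs, a receptor and a ligand were found together in 25 wells, or 5.87%, all 3 roles in 4 and no member in 214. Notch1 and Notch4 were found together in 134 wells. Of the 47 wells with Dll4, 33 (70.2%) also had Jag1, against 53.3% of all main wells, and the share was 62.5%, 70.0%, 76.9% and 75.0% by mouse. After thinning, 7 wells had Dll4 and 2 of these had Jag1, so that the joint detection cannot be separated from depth here.

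Between the labelled genotypes, none of the 5 members that passed edgeR's filter on low counts was called. At an adjusted p under 0.05 in edgeR (quasi-likelihood test, Benjamini-Hochberg adjustment), 1 of the 8145 genes tested was called, which is 0.0123%. That gene was Acta2, which encodes smooth muscle actin, at 449, 636, 146 and 147 CPM in the main wells. At an unadjusted p under 0.05 there were 444 genes, or 5.45%, and of the members Jag1 alone. DESeq2 called 2 genes and no member.

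Jag1 had a log2 fold change, labelled Epas1 EC-KO over Epas1 EC-WT, of -0.53 with a standard error of 0.19 in edgeR, an unadjusted p of 0.0158 and an adjusted p of 0.879. Its 95% interval ran from -0.95 to -0.12. In 19 alternative settings the value stayed below 0, between -0.68, without the Dcn-led wells, and -0.10, with adjusted p between 0.599 and 1.000 and an unadjusted p under 0.05 in 13. The value nearest 0, -0.10, came from wells thinned to 1000 UMIs, where every well of a mouse weighs the same and Jag1 had 24, 23, 26 and 15 UMIs and the labelled groups overlapped (161, 245, 230 and 214 CPM). The remaining values were -0.48 or lower. Within the shared flow cell, Jag1 was 163 CPM in EC-KO 2 and 248 in EC-WT 1.

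The other tested members had intervals that span 0. Notch1 had a log2 fold change of 0.24 (edgeR, standard error 0.19, 95% interval -0.16 to 0.64, adjusted p 0.916), and the value turned to -0.11 with read counts. Notch4 stood at -0.17 (edgeR, interval -0.70 to 0.35, adjusted p 0.968) and turned to 0.22 without EC-WT 1, with -0.57 from wells thinned to 1000 UMIs. Dll4 stood at -0.46 (edgeR, interval -1.38 to 0.46, adjusted p 0.951), and at -0.06 without EC-WT 2 and -0.80 without EC-WT 1. Without the Dcn-led wells Dll4 turned to 0.87 (edgeR, adjusted p 0.895), from 16, 19, 6 and 6 UMIs, or 22.5, 31.2, 12.2 and 19.0 CPM, where the EC-KO-labelled mice were the higher ones. Hes1 stood at 0.26 (edgeR, interval -0.43 to 0.96, adjusted p 0.964), with 1.12 when EC-WT 1 was left out and -0.25 when EC-WT 2 was left out, and 0.49 without the Dcn-led wells. With EC-WT 1 left out the adjusted p was 0.0695 in edgeR, with EC-WT 2, the lowest mouse, alone in its group and assumed to vary like the other group.

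Over all genes tested, 35.2% had CPM values that did not overlap between the labelled groups. Of the 5 members tested, 2 did not overlap, Notch1 and Jag1. Their median log2 fold change was -0.17, beside 0.00 over all genes tested. Jag2, Hey1 and Heyl did not pass the filter in the main wells, and were tested there with DESeq2, with no filter or with read counts, and Hey1 also without EC-WT 1, at adjusted p of 0.860 or above. For Heyl the log2 fold change was 1.29 in DESeq2, 1.28 with no filter in edgeR and -2.0 with read counts, where EC-WT 2 had 202 reads from its 3 UMIs and the other mice 35, 12 and 25 reads.

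**Figure D3:**
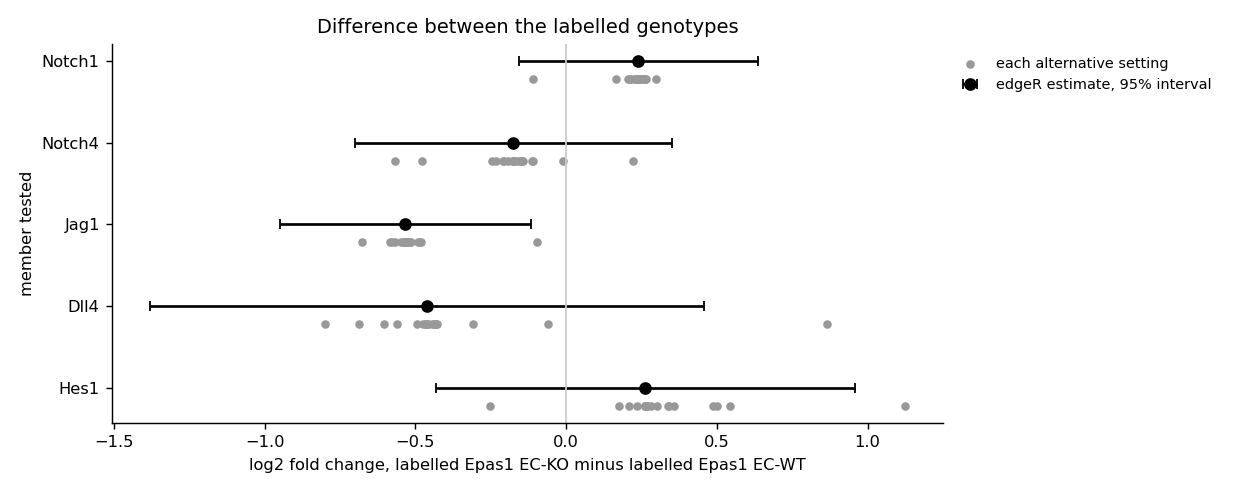
Log2 fold change, labelled Epas1 EC-KO over labelled Epas1 EC-WT, of the 5 members tested in the main wells (black, edgeR estimate with its 95% interval; grey, each alternative setting). The Jag1 interval, -0.95 to -0.12, lies below 0, and the other 4 intervals span 0; no member passed the adjusted threshold.

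Other genes of the pathway were counted by role from a list of 61, of which 52 were listed in the files and 40 were tested. None was called higher or lower. Of the 40, 3 had an unadjusted p under 0.05 in edgeR, beside 5.45% of all genes tested. The groups did not overlap for 16 of 40, beside 35.2% of all genes tested. The median log2 fold change of the 40 was -0.04. Of the remaining receptors, Notch2 had 39, 21, 29 and 16 UMIs in the main wells and a log2 fold change of -0.13, and Notch3 had 6, 3, 0 and 0 UMIs and was not tested. Of the ligands, Dll1 had a mean of 182 CPM over the 4 mice and a log2 fold change of 0.11. It was the sole tested ligand of the 4 listed in the files besides the members.

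For each of the next 3 roles, 3 genes are given that were picked by mean CPM over the mice, which was not divided by length and ranks no transcripts between genes. Among 20 tested genes of ligand and receptor processing, 8 lay above 0 and 12 below. Those picked were Adam10, which encodes the protease that makes the first activating cut in Notch (336 CPM, log2 fold change -0.07), and Psenen and Psen2, which encode parts of the γ-secretase that makes the next cut (139 and 105 CPM, log2 fold changes -0.23 and -0.51). Of the 11 tested genes of the nuclear complex and its corepressors, 6 lay above 0, and those picked were the corepressor genes Ncor1 (253 CPM, 0.20), Ctbp1 (147 CPM, 0.08) and Spen (109 CPM, -0.14). Of the 7 tested targets and feedback genes, 3 lay above 0, and those picked were Efnb2, which encodes the arterial marker ephrin-B2 (274 CPM, -0.19), the cell cycle inhibitor gene Cdkn1a (187 CPM, 0.65) and Sox17, which encodes an arterial transcription factor (163 CPM, -0.42). Cdkn1a had 137, 320, 146 and 147 CPM, so that EC-KO 2 alone stood high and the labelled groups overlapped, and 45 of the UMIs of EC-KO 2 came from 1 well. The lowest adjusted p among these genes was 0.879 in edgeR.

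The 441 kept wells fell into 6 clusters, made without the Notch genes among the genes used for clustering. Those with no cell type name are called by their leading gene, Vmn2r55 (134 wells), Meg3 (119), Dcn (89) and Chad (61). The Vmn2r55-led wells were the shallowest, with a median of 2156.5 UMIs, against 5631 to 9573 in the other clusters. A cluster of 23 wells was led by Fabp4, Cd36 and Lrg1 and is called lipid-handling endothelial-like, with 10216 CPM over 10 lipid-handling genes against 116 to 203 CPM in the other clusters. The smooth muscle-like cluster of 15 wells was led by Tagln, Myh11 and Acta2, with 57639 CPM over 11 smooth muscle genes. Its endothelial genes summed to 2222 CPM, against 10691 to 16226 elsewhere. Levels by cluster are descriptions with no test, and by mouse they rest on at least 5 wells.

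Notch1 varied little among the main clusters, from 228 CPM in the Dcn-led wells to 318 in the Meg3-led wells, and mice within a cluster spread as widely, from 111 to 352 CPM in the Vmn2r55-led wells. Notch4 ran from 96.6 CPM in the Chad-led wells to 151 in the Meg3-led wells. Jag1 ran from 103 CPM in the lipid-handling endothelial-like wells to 258 in the Dcn-led wells. In the Dcn-led wells Jag1 was 233, 251, 361 and 227 CPM, so that the labelled groups overlapped, whereas in the Vmn2r55-led, Meg3-led and Chad-led wells both EC-KO-labelled mice were lower, at 158 and 111 against 297 and 175, at 152 and 153 against 182 and 302, and at 95.1 and 124 against 212 and 182. Jag1 was thus lower in both EC-KO-labelled mice within 3 of the 4 larger clusters, which hold the same 4 mice and are not independent repeats. Its UMIs were 18, 6, 33 and 8 in the Vmn2r55-led wells and 15, 9, 24 and 11 in the Chad-led wells. In the Meg3-led wells they were 62, 70, 43 and 53. The Dcn-led wells also held the highest fibroblast gene sum of the main clusters, at 2889 CPM against 189 to 1226. Their 10 leading genes included the fibroblast genes Dcn and Lum and the matrix gene Col8a1, beside Edn1, which encodes endothelin of endothelium. None of the 14 listed endothelial markers was among the 10 leading genes of these wells or of any other cluster. Pecam1 had a UMI in all 89 Dcn-led wells and Cdh5 in 88.8%. Their endothelial genes summed to 10691 CPM, against 11871 to 16226 in the other main clusters. The part of the fibroblast genes in the Jag1 level was not tested.

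Hes1 was highest in the lipid-handling endothelial-like wells, at 276 CPM (35 UMIs, exact 95% Poisson interval 192 to 384), against 76.9 to 131 CPM in the other main clusters. In EC-KO 1, EC-WT 1 and EC-WT 2, which had at least 5 such wells, it was 248, 424 and 85.9 CPM, each the highest of that mouse's main clusters with at least 5 wells, although the value in EC-WT 2 came from 3 UMIs and its Dcn-led wells stood close, at 81.5 CPM. The UMIs came from few wells, 8 of 23, with 12 in 1 well. Hey1 was also highest there, at 55.2 CPM against at most 10.6, from 7 UMIs in 4 wells, 5 of these UMIs in EC-WT 1. Hey1 and Hes1 kept this place in all 3 other clusterings, at 42 to 58.7 CPM for Hey1 and 252 to 294 for Hes1.

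Dll4 and Jag2 had their highest level in the same cluster, but it rested on EC-KO 1. Dll4 had 8 UMIs there, or 63.1 CPM, 6 of them in EC-KO 1 (186 CPM, against 30.3 in EC-WT 1 and 28.6 in EC-WT 2). All 3 Jag2 UMIs came from EC-KO 1. With 20 principal components, another cluster was higher for Dll4 (64.2 against 58.8 CPM) and for Jag2 (21.4 against 8.40 CPM). In the Dcn-led wells Dll4 had 4 and 0 UMIs in the EC-KO-labelled mice and 9 and 16 in the EC-WT-labelled ones, 9 of the latter in 1 well. Hey2, a HEY repressor gene outside the members, stood otherwise than Hey1. It had no UMI in the 23 lipid-handling endothelial-like wells, where 3 UMIs would be 23.7 CPM, and 150 to 197 CPM in the other main clusters.

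**Figure D4:**
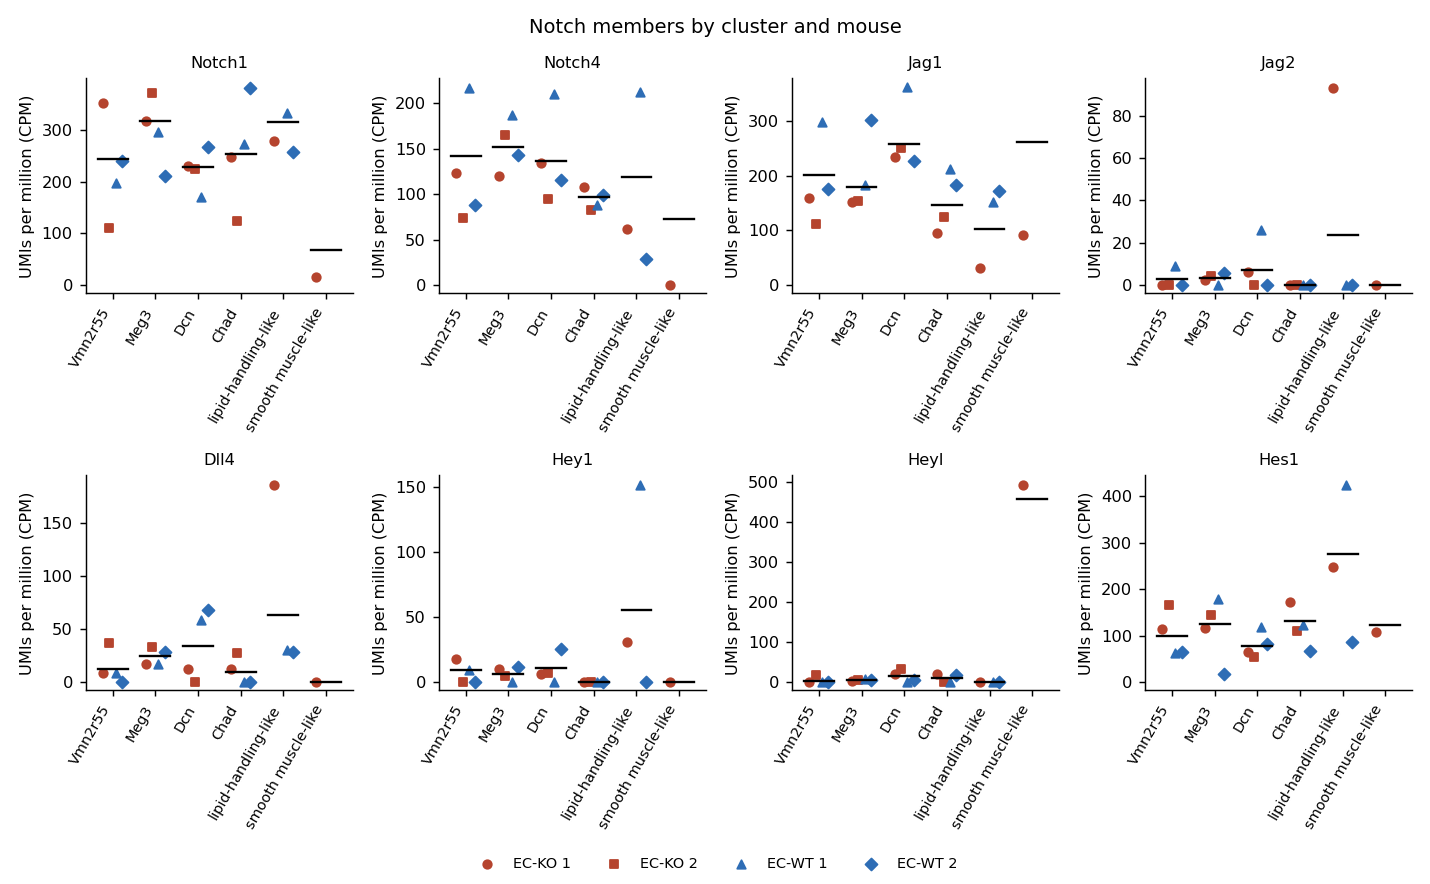
Level of each member in CPM by cluster. Points are mice with at least 5 wells in the cluster, and black lines are all wells of the cluster together; Heyl stands at 457 in the smooth muscle-like cluster and at 14.2 or less in the others, and Hes1 at 276 in the lipid-handling endothelial-like cluster.

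Heyl was the member that set the smooth muscle-like wells apart. It had 82 UMIs in these 15 wells, 78.1% of its UMIs in all kept wells, and 457 CPM against 0 to 14.2 in the main clusters. By mouse it had 32, 48, 0 and 2 UMIs in 8, 4, 1 and 2 such wells, and 12 of the 15 wells had at least 1. Notch3, the receptor gene of smooth muscle, had 62 UMIs in the same wells and 9 in the main wells. Of the 62, 35 came from the deep well of EC-KO 2 described next. Without that well, 27 Notch3 UMIs remained, or 205 CPM against 345 with it. Jag2, Dll4 and Hey1 had no UMI in the smooth muscle-like wells, where 3 UMIs would be 16.7 CPM.

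A single well of EC-KO 2, with 47621 UMIs the deepest kept well of that mouse, carried much of the other members' signal. It held 27 of the 47 Jag1 UMIs of the smooth muscle-like wells, 10 of the 12 for Notch1, 11 of the 13 for Notch4, 12 of the 22 for Hes1 and 36 of the 82 for Heyl. The same well had 1033 UMIs of the smooth muscle genes and 225 of the endothelial genes, 60 of them Pecam1. Doublets were not called. Without that well, the level in the smooth muscle-like wells was 15.2 CPM for Notch1 and for Notch4, 152 for Jag1, 75.8 for Hes1 and 349 for Heyl, the last from 46 UMIs in 11 of 14 wells. Another of these wells, from EC-WT 2 with 15257 UMIs, had 459 UMIs of the smooth muscle genes and 88 of the endothelial genes. It held 8 of the 20 Jag1 UMIs and 1 of the 2 Notch1 UMIs that remained.

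When the smooth muscle-like wells were counted with the rest, Heyl passed the filter. Its log2 fold change, labelled Epas1 EC-KO over Epas1 EC-WT, was then 3.16 with a standard error of 0.54 and an adjusted p of 0.0626 in edgeR. The wells behind it were 12 smooth muscle-like ones against 3, and fewer cells of a type cannot be told apart from less RNA per cell in such sums. In the main wells, UMIs of Heyl (10, 8, 2 and 3) and of the smooth muscle genes (974, 743, 234 and 181) were both more numerous in the EC-KO-labelled mice. Heyl UMIs for every 1000 smooth muscle gene UMIs were 10.3, 10.8, 8.55 and 16.6, the last pair from counts at or under the floor. The smooth muscle-like wells had 7.92 for every 1000, or 4.94 without the deepest well. The part of smooth muscle RNA in the main wells' Heyl level was not tested.

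**Figure D5:**
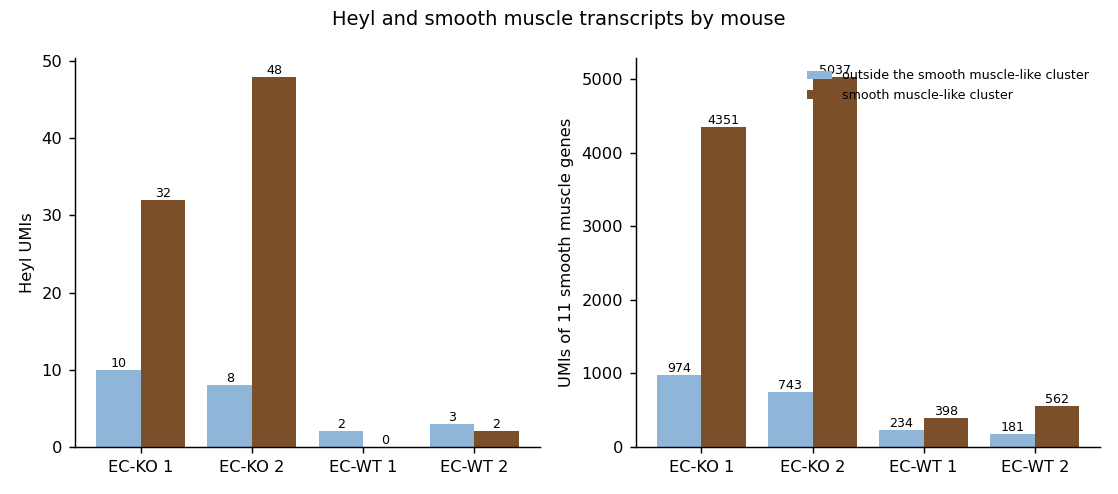
UMIs of Heyl (left) and of 11 smooth muscle genes together (right) in each mouse, in the main wells (light bars) and the smooth muscle-like wells (dark bars). Both sums are larger in the EC-KO-labelled mice in both kinds of well, with 32 and 48 Heyl UMIs in their smooth muscle-like wells against 0 and 2. These came from 8 and 4 wells against 1 and 2, which held 65110 and 94726 UMIs against 3178 and 16518. The sums were not divided by well number or depth, so they do not compare levels. In the smooth muscle-like well of EC-WT 1 the floor corresponds to 944 CPM, so its 0 for Heyl gives no level.

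The smooth muscle-like wells also held UMIs of genes known from endothelium. Notch1 and Notch4 had 66.8 and 72.4 CPM there, each with a UMI in 3 wells, and 15.2 CPM each without the deepest well, against 228 to 318 and 96.6 to 151 in the main clusters. At a median of 7368 UMIs, Dll1 had a UMI in 2 of these wells, at 11.1 CPM against 170 to 201 in the main clusters. Dll4 had a UMI in none of them. Their median depth was above that of the main wells of EC-KO 1, EC-WT 1 and EC-WT 2 and level with that of EC-KO 2, at 5855, 3808, 5752.5 and 7334.5 UMIs.

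Genes with a pattern most like each member were found by Pearson correlation of log2(CPM + 50) over 20 sums, each of 1 mouse and 1 cluster with at least 5 wells, among 1852 genes with a mean of at least 100 CPM. The sums share mice, libraries and depth, so the values describe these sums. Heyl was most like Myl9, Postn and Itga8 (r = 0.94 for each over the 20 sums), of which Myl9 encodes a myosin light chain of smooth muscle. One of the 20 sums was smooth muscle-like, and without it the correlations were 0.29, 0.30 and -0.08. Notch1 was most like Myct1, an endothelial gene, Als2cl and St3gal1 (r = 0.88, 0.87 and 0.81, or 0.62, 0.63 and 0.34 without the smooth muscle-like sum), and Notch4 most like Pnp, Sp110 and Tmed10 (r = 0.86, 0.84 and 0.84). Jag1 was most like Mtch1, Nfe2l1 and Clptm1 (r = 0.75, 0.74 and 0.73), and the gene nearest to Hes1 was Cdc42bpb (r = 0.73). Dll4 and Jag2 shared Zfp36l1 as the nearest gene (r = 0.78 and 0.82), and Hey1 was nearest to Tmed3 (r = 0.81), all 3 members from sums that mostly held fewer than 3 UMIs.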

How the data were processed

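UMI counts per gene and well, read counts and estimated counts of transcripts, which correct UMIs for the limited number of identifiers, were deposited by the authors for 4 plates of 384 wells, without normalization; BWA 0.7.15, Seurat, mm10 and GRCm38 are named in the submitters' processing notes. The 4 mice gave 910699 to 1475546 UMIs per plate, spike-ins included. The 384 well barcodes are the same on every plate by design. Members and lists were chosen with earlier results of these data known. Kept wells were clustered in Seurat 5.3.0 (log normalization to 10000, 2000 variable genes without the Notch genes, 10 principal components). UMIs of wells outside the smooth muscle-like cluster were summed per mouse and tested with edgeR 4.0.16 (filterByExpr, TMM, quasi-likelihood, Benjamini-Hochberg over all genes tested, threshold 0.05), after a run on simulated data. Estimated counts were rounded for the alternative that used them. DESeq2 1.42.0, other normalizations, filters, well limits, counts, thinning, a replicate block and leaving out each mouse were alternatives, and leaving out the Dcn-led wells was added after seeing the data. Shares used exact permutation tests (scipy 1.17.1) and exact Clopper-Pearson intervals at 95%. Intervals and floors cover counting error only. P-values measure the spread between mice. Named genes were the 8 members, pathway genes passing the test or among the 3 highest by mean CPM in their role, the 3 genes most like each member (for Hes1, Hey1, Dll4 and Jag2 only the nearest is printed), the 3 leading genes of each cluster, Epas1, Pecam1, Cdh5, Acta2 and Myh11; other genes, and wells named singly, were chosen after their values were seen.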

Additional observations from a re-analysis of the deposited data

Results flagged for a closer look

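Wells left out of every comparison above, because they held too few UMIs or too large a mitochondrial share, carried 119 UMIs of the 8 members. By mouse there were 15, 42, 32 and 30 in 227, 286, 270 and 312 wells, above a floor of 3 UMIs in each. They made up 546, 1027, 776 and 678 CPM of these wells' UMIs, beside 725, 779, 867 and 731 CPM in the main wells. Notch1, Notch4 and Jag1 gave 35, 31 and 36 of them. Where they came from was not tested. The labelled groups hold 2 mice each, too few for a search for mice that stand apart.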

How the results depend on the processing

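No member was called at an adjusted p under 0.05 in any of 19 alternative fits. The count of all genes called higher in the mice labelled Epas1 EC-KO was 1, and became 2 with DESeq2, at 2000 UMIs or without wells over 3 times the median, 12 with no filter on low counts, 10 with all kept wells, 6 with wells thinned to 1000 UMIs and 0 with read counts. The count called lower was 0, and became 8 with no filter, 1 without wells over 3 times the median and 1 with thinning. With each mouse left out in turn, 13 to 29 genes were called higher and 4 to 48 lower, the most without EC-WT 1 (29 and 48); each of these fits has 1 mouse in a group, assumed to vary like the other group. With the replicate block, 0 genes were called in either direction (350 at an unadjusted p under 0.05). No pairing by replicate number was seen: deviations of same-numbered mice from their group means correlated at -0.04 over 8145 genes. With 2 mice a group, this value rests on a single difference between mice in each group and cannot exclude a pairing.

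Reversals of log2 fold change were -0.11 for Notch1 with read counts, and with each mouse left out in turn Notch4 ran from -0.48 to 0.22 (above 0 without EC-WT 1; -0.57 with thinning) and Hes1 from -0.25 (without EC-WT 2) to 1.12. Heyl, not tested under the filter, was 1.29 in DESeq2, 1.28 with no filter and -2.0 with read counts. Without the Dcn-led wells, a setting chosen after seeing the data, Dll4 was 0.87 in log2 fold change and 4.61 points in share, and Hey1 0.52 points in share. Between the pair on the same flow cell, with 5 CPM added, Dll4 was 0.094 and Hes1 -0.13. The cause was not tested. Differences in the share of wells reversed for Notch4 (-5.15 points thinned, -1.74 at 2000 UMIs, -2.48 to 4.97 over single mice left out, below 0 without EC-KO 2, at -2.03, or EC-WT 2), Jag2 (-0.82 thinned, -0.00029 at 2000 UMIs, -0.35 with no mitochondrial limit, -0.25, without EC-WT 2, to 0.98 over single mice left out), Dll4 (0.14 thinned) and Hey1 (0.17 at 500 UMIs, 1.04 at 2000 UMIs, -1.01 to 0.62, the latter without EC-WT 2, over single mice left out).

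With 2 mice a group and at most 22 UMIs of Dll4 in the main wells of any mouse, the Dll4 interval was wide. Jag2, Hey1 and Heyl had at most 10 UMIs there in any mouse and did not pass the filter. The parts of depth and of a low level in this were not tested.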
